A study of Mus musculus with 12 samples.

Results

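The genes followed here build the basement membrane: the laminin chains Lama2, Lama4, Lama5, Lamb1, Lamb2 and Lamc1, the nidogens Nid1 and Nid2, and the proteoglycan core proteins Hspg2 (perlecan) and Agrn (agrin). They were picked by gene symbol and not by a cut on measured values, though with earlier results of these data known. They make up 10 of the 52636 gene rows in each of the 2 deposited tables. The libraries are bulk RNA-seq of cultured murine mesenchymal cells in which the transcription factor KLF4 was silenced. Airway SMCs and lung PDGFR-β+ cells were each treated with a scrambled control RNA (Scr) or a small interfering RNA against Klf4 (siKlf4), with 3 libraries in each of the 4 groups. The SMCs of both arms came from a commercial C57BL/6 culture (CellBiologics C57-6082) whose labelled tissue is trachea, with no age given. The labels of the PDGFR-β+ cells give C57BL/6 lung at 12 weeks, and per the methods they were Zs+ cells taken by sorting after tamoxifen from the reporter strain Pdgfrb-CreERT2, ROSA26R(Zs/+), so that a Cre driven by Pdgfrb defined the population. Labels list the Scr arms as WT and the siKlf4 arms as Klf4 KD, the latter being a transient silencing and not a deletion. Both cell types were grown on gelatin, briefly serum starved, transfected, and kept for some days in the same supplemented SMC medium before RNA was taken. Alternative lipid reagents and siRNA makers are listed in the methods, and which of them served which cells is not stated there. The libraries are described as independent experiments, without saying whether these used separate animals or culture lots, so p-values measure the spread between these libraries.

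Basement membranes are thin sheets of extracellular matrix that underlie epithelia and endothelia and enclose each smooth muscle cell. Laminins, trimers of an α, a β and a γ chain, and type IV collagen form their networks. Nidogens and perlecan link these networks, and agrin and perlecan carry heparan sulfate chains that bind growth factors. Cells hold on to the sheet through integrins and through dystroglycan, whose sugar chains bind laminin, perlecan and agrin. In the lung such sheets surround airway and vascular smooth muscle and lie between capillaries and alveolar epithelium.

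Values are transcripts per 1000000 (TPM), in which reads are divided by transcript length, so that levels of different genes can be set side by side within a library. Changes are differences of log2(TPM + 1), tested with limma over every gene with a mean of at least 1 TPM and adjusted by the Benjamini-Hochberg method over all of them. Klf4 itself read 89.6, 96.3 and 95.0 TPM in the Scr SMCs and 26.5, 16.3 and 18.8 TPM in the siKlf4 SMCs, a mean of 21.9% of control. The PDGFR-β+ cells read 144, 146 and 134 TPM for Scr and 12.3, 13.8 and 12.8 TPM for siKlf4, or 9.16% of control. Every siKlf4 library lay below every Scr library in both cell types. 1 Scr and 1 siKlf4 column of the SMC table carry no replicate number, and the first SMC value of each trio below belongs to that column. The median absolute log2 difference over genes between these libraries and the numbered ones of the same group was 0.154 to 0.195, against 0.102 to 0.107 between the numbered ones.

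Smooth muscle markers were present in both cell types, and Acta2 averaged 1373 TPM in Scr SMCs and 4369 TPM in Scr PDGFR-β+ cells. Pdgfrb averaged 214 and 447 TPM. Myocd, the smooth muscle co-activator, stayed under 1 TPM in every library. Over all tested genes, 15.6% were higher and 12.9% lower with siKlf4 in SMCs, and 25.3% and 15.3% in PDGFR-β+ cells. With siKlf4, 6 of the 7 tested smooth muscle markers rose in SMCs and none fell, and their summed level was 1495 to 2284 TPM over Scr libraries and 3411 to 4174 TPM over siKlf4 libraries. In PDGFR-β+ cells 3 rose and 3 fell, at sums of 5551 to 6408 TPM and 4708 to 5003 TPM. Of the fibroblast and pericyte markers, 3 of 10 tested fell in SMCs and 3 of 7 in PDGFR-β+ cells, with none higher. Their sum was 1959 to 2331 TPM under Scr and 1796 to 2071 TPM under siKlf4 in SMCs, ranges that overlap, and 2454 to 2871 TPM and 1635 to 2209 TPM in PDGFR-β+ cells. All 8 epithelial markers stayed under 1 TPM. Of the 8 endothelial markers, Tie1 and Cldn5 were at 0 throughout and Kdr reached at most 3.12 TPM in SMCs and 17.1 TPM in PDGFR-β+ cells. Kdr rose in SMCs from 0.663 to 2.88 TPM (adjusted p = 0.00234), the 1 endothelial marker tested there, and in PDGFR-β+ cells Tek rose from 1.33 to 2.55 TPM (adjusted p = 0.0212), 1 of 2 tested. The 6 macrophage markers summed to 4.68 to 7.19 TPM with Scr and 4.44 to 6.51 TPM with siKlf4 in SMCs, and to 28.7 to 29.9 TPM and 18.7 to 22.8 TPM in PDGFR-β+ cells. Of the 3 tested in PDGFR-β+ cells, 2 fell (Lyz2 and Csf1r). The other, Cd68, had means of 7.56 and 8.77 TPM without a detected change (adjusted p = 0.290). Adgre1 and Itgam stayed near 0 there, and Ptprc under 1 TPM. Mesothelial markers summed to 17.0 to 26.7 TPM with Scr and 7.03 to 9.99 TPM with siKlf4 in SMCs, and to 14.2 to 15.9 TPM and 3.08 to 3.34 TPM in PDGFR-β+ cells, with 2 of 2 and 3 of 3 tested markers lower. The part of these shifts in the results on basement membrane genes was not tested, and in bulk RNA fewer cells of a type and less RNA per cell cannot be told apart.

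The start sites of 3 genes are shown because each stands for one pattern described below: Agrn rose in both cell types, Lamb2 fell in both, and Nid1 changed in opposite directions. KLF factors bind CACCC and related GC-rich letters. Each line gives the 250 bases before the RefSeq start site (GRCm38.p6, the build also called mm10), written 5′ to 3′ on the strand of the gene, with CACCC or its reverse complement GGGTG in capitals. The stretches are chr4:156197489-156197738 on the reverse strand for Agrn, chr9:108479612-108479861 on the forward strand for Lamb2 and chr13:13437352-13437601 on the forward strand for Nid1.
Agrn: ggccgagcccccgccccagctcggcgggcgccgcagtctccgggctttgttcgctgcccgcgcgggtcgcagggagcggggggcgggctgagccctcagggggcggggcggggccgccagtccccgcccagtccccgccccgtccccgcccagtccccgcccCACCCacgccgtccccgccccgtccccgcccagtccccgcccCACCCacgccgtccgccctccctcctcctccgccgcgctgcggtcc
Lamb2: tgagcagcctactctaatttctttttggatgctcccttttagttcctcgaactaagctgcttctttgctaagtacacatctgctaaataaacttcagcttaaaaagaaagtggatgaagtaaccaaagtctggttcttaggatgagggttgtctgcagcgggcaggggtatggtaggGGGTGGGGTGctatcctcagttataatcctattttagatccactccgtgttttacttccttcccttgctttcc
Nid1: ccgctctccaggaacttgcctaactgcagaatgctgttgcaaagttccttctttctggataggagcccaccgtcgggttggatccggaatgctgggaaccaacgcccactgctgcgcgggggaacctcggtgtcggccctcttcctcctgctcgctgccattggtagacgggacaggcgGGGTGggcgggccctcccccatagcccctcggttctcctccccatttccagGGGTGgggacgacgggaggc
RefSeq promoters, windows of 300 bases with the 50 bases after the start site included, were at hand for 7 of the 10 genes, with 2 start sites for Agrn, and not for Lama4, Lamc1 and Nid2. In such a window CACCC on either strand was found in 57.5% of the 32851 mouse promoters, and the GC box GGGCGG in 35.7%. The window at the upstream start of Agrn held 2 CACCC and 12 GC box matches at a GC content of 83.3%, that at its second start 1 and 2 matches. Lamb2 held 2 CACCC matches side by side and no GC box, at a GC content of 44.0%. Nid1 held 2 CACCC matches and 1 GC box, which begins on the last base of the first of them. Of the others, Lama2 and Hspg2 held 3 CACCC matches each, Lamb1 held 1 and Lama5 none, beside 1, 5, 2 and 4 GC boxes. A match describes letters and is not evidence of binding.

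With Scr RNA, Nid1 stood highest in both cell types, at 812 ± 11.7 TPM (SD, n = 3) in SMCs and 795 ± 36.9 TPM (SD, n = 3) in PDGFR-β+ cells. In SMCs it was followed by Lamb1 at 327 ± 14.7 TPM, Hspg2 at 278 ± 28.3 TPM, Nid2 at 232 ± 12.7 TPM and Lamc1 at 179.7 ± 6.67 TPM. Lamb2 at 153 ± 2.08 TPM, Lama4 at 142 ± 9.73 TPM, Lama2 at 41.9 ± 4.11 TPM, Agrn at 40.7 ± 7.88 TPM and Lama5 at 20.7 ± 3.14 TPM completed the order. The ranges of Hspg2 and Nid2, of Lamb2 and Lama4, and of Lama2 and Agrn overlapped, so these neighbours did not differ beyond their spread. PDGFR-β+ cells carried Hspg2 at 454 ± 60.8 TPM, Lamb2 at 211 ± 20.6 TPM, Lamc1 at 176 ± 8.46 TPM, Lamb1 at 153 ± 3.95 TPM and Lama4 at 94.8 ± 18.0 TPM. Below these came Nid2 at 48.2 ± 7.62 TPM, Lama2 at 42.6 ± 3.68 TPM, Agrn at 11.5 ± 0.642 TPM and Lama5 at 5.49 ± 0.422 TPM. Only Nid2 and Lama2 overlapped among neighbours there.

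Set across the 2 separately normalised tables, and therefore as a description, the Scr SMCs carried more Nid2 (4.81-fold), Lama5 (3.78-fold), Agrn (3.54-fold), Lamb1 (2.13-fold) and Lama4 (1.50-fold) than the Scr PDGFR-β+ cells. The PDGFR-β+ cells carried more Hspg2 (1.63-fold) and Lamb2 (1.37-fold). Lama2, Lamc1 and Nid1 overlapped between the cell types.

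**Figure D1:**
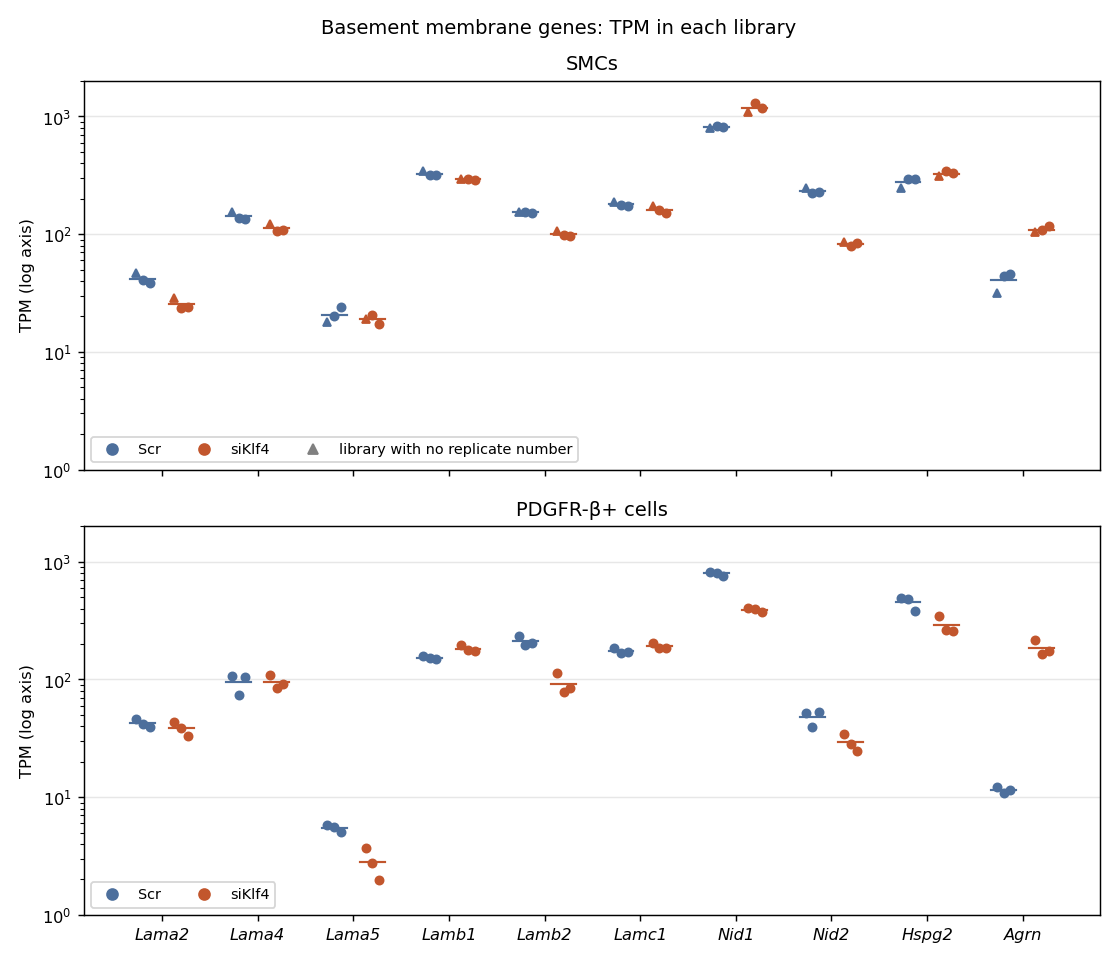
TPM of each basement membrane gene (x axis) in each of the 12 libraries on a log axis, SMCs above and PDGFR-β+ cells below, with Scr in blue, siKlf4 in orange, horizontal lines at group means and triangles for the SMC libraries without a replicate number. Agrn of PDGFR-β+ cells moves from near the bottom of the range to the level of Lamc1, and Nid1 moves up in SMCs and down in PDGFR-β+ cells.

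All 10 genes passed the minimum of 1 TPM in both cell types. In SMCs, Nid1 and Agrn rose and Lama2, Lama4, Lamb2 and Nid2 fell. Thus 2 of 10 were higher, where 15.6% of all 13709 tested genes were higher, and 4 of 10 were lower, where 12.9% of all tested genes were lower. Scr and siKlf4 libraries did not overlap for 9 of 10 genes, as for 47.1% of all tested genes. With a term for the unnumbered pair of libraries the counts were 3 higher and 6 lower, with the numbered SMC libraries alone 3 and 4, and in a fit of both cell types together 2 and 3. The shares above belong to the main fit. Shares of all genes under these other settings are not given here, so these counts cannot be set against a background. In PDGFR-β+ cells, Lamb1 and Agrn rose and Lama5, Lamb2, Nid1, Nid2 and Hspg2 fell. This makes 2 of 10 higher, against 25.3% of all 13694 tested genes, and 5 of 10 lower, against 15.3%. Groups did not overlap for 7 of 10, as for 53.8% of all tested genes. The median log2 fold change of the 10 genes was -0.15 in SMCs and -0.40 in PDGFR-β+ cells, while the median over all tested genes was 0.017 and 0.097. The response differed between the cell types for 8 of 10 genes by an interaction term fitted to all 12 libraries together, as it did for 33% of the 13032 genes tested in both. An exact permutation test of 3 against 3 libraries cannot go below p = 0.1, so the calls rest on the variance that limma shares across genes.

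**Figure D2:**
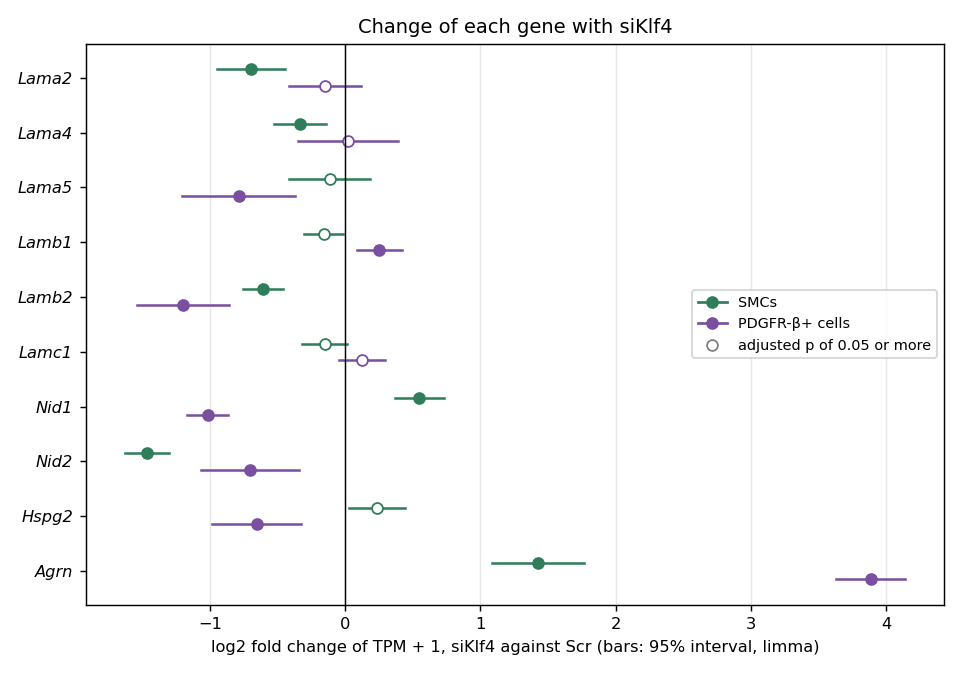
Log2 fold change of TPM + 1 with siKlf4 (x axis) for each gene (y axis), SMCs in green and PDGFR-β+ cells in purple, with 95% intervals from limma and open circles where the adjusted p is 0.05 or more. Agrn lies to the right and Lamb2 and Nid2 to the left of 0 in both cell types, and Nid1 lies on opposite sides.

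Lama2 (chr10:26980036-27619758, reverse strand) encodes the α2 chain of the laminins around muscle fibres, the chain lost in a congenital muscular dystrophy. In SMCs it read 46.5, 40.6 and 38.7 TPM for Scr and 28.6, 23.7 and 24.2 TPM for siKlf4. The groups stood apart and the level fell (log2 fold change -0.70, SE 0.11, adjusted p = 0.00485). In PDGFR-β+ cells the values were 46.6, 42.1 and 39.3 TPM for Scr and 43.4, 38.7 and 33.3 TPM for siKlf4. These overlapped, and no change was detected (log2 fold change -0.15, SE 0.11, adjusted p = 0.332, 95% interval -0.42 to 0.12). The effect was lower in SMCs by the interaction term (log2 fold change -0.55, SE 0.16, adjusted p = 0.0231), and this call was lost without any one of 5 libraries, the unnumbered Scr or siKlf4 replicate 2 or 3 of SMCs, or Scr replicate 3 or siKlf4 replicate 1 of PDGFR-β+ cells (adjusted p 0.0504 to 0.0562).

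Lama4 (chr10:38965515-39110188, forward strand), the α4 chain of vessel walls and other mesenchymal basement membranes, was the most abundant α chain in both cell types. SMCs had 153, 138 and 135 TPM for Scr and 122, 107 and 109 TPM for siKlf4. All siKlf4 values lay below all Scr values (log2 fold change -0.34, SE 0.082, adjusted p = 0.0225), but the call was lost without Scr replicate 2 or without siKlf4 replicate 2 or 3 (adjusted p 0.0555 to 0.0839), and in a fit of both cell types together (adjusted p = 0.0773). PDGFR-β+ cells had 106, 74.0 and 104 TPM for Scr and 109.5, 85.2 and 91.9 TPM for siKlf4, mixed between the groups (log2 fold change 0.022, SE 0.16, adjusted p = 0.925, 95% interval -0.34 to 0.39). No difference between the cell types passed the test (log2 fold change -0.36, SE 0.19, adjusted p = 0.174).

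Lama5 (chr2:180176373-180225859, reverse strand), the α5 chain of epithelial and endothelial basement membranes, was the least abundant of the 10 genes. The SMC levels were 17.8, 20.3 and 24.1 TPM for Scr and 19.1, 20.7 and 17.2 TPM for siKlf4. They overlapped and no change was detected (log2 fold change -0.11, SE 0.13, adjusted p = 0.535, 95% interval -0.41 to 0.19). In PDGFR-β+ cells Lama5 dropped from 5.85, 5.58 and 5.03 TPM with Scr to 3.70, 2.78 and 1.98 TPM with siKlf4. Every siKlf4 library lay below every Scr library there (log2 fold change -0.79, SE 0.18, adjusted p = 0.0109). The pseudocount weighs on so low a gene, and the ratio of the means, 1.94-fold lower, exceeds what the log2 scale gives. The interaction term passed the threshold (log2 fold change 0.67, SE 0.23, adjusted p = 0.0395), but leaving out single libraries kept it past the threshold in 4 of 12 fits only (adjusted p up to 0.0876), being lost without the unnumbered library or replicate 2 of either SMC group, Scr replicate 1 or 2, or siKlf4 replicate 2 or 3 of PDGFR-β+ cells.

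The β chains moved in opposite directions in PDGFR-β+ cells. Lamb1 (chr12:31265234-31329644, forward strand) encodes the β1 chain of most mesenchymal laminins. Its SMC levels were 344, 319 and 318 TPM for Scr and 296, 296 and 286 TPM for siKlf4. The siKlf4 values were all lower, without passing the threshold (log2 fold change -0.16, SE 0.061, adjusted p = 0.0905, 95% interval -0.30 to -0.017) unless the naming of the libraries was a term of the fit (adjusted p = 0.0294). In PDGFR-β+ cells Lamb1 read 157, 152 and 149.6 TPM for Scr and 198, 178 and 173 TPM for siKlf4. The groups did not overlap and Lamb1 rose by the test (log2 fold change 0.25, SE 0.072, adjusted p = 0.0265). That call was lost under median-ratio scaling (log2 fold change 0.14, adjusted p = 0.0904) and without any single PDGFR-β+ library but siKlf4 replicate 3 (adjusted p 0.0505 to 0.0714 in the 5 fits). The change was lower in SMCs than in PDGFR-β+ cells (log2 fold change -0.41, SE 0.089, adjusted p = 0.00450), and this held without any one of the 12 libraries.

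Lamb2 (chr9:108479736-108490530, forward strand) encodes the β2 chain of laminins at neuromuscular junctions, in the kidney filter and in vascular smooth muscle. In SMCs it fell from 155, 153 and 151 TPM with Scr to 106, 98.3 and 96.5 TPM with siKlf4 (log2 fold change -0.61, SE 0.064, adjusted p = 0.00159). In PDGFR-β+ cells it fell from 234, 195 and 203 TPM to 114, 77.9 and 85.1 TPM (log2 fold change -1.20, SE 0.15, adjusted p = 0.000729). The mean was 1.53-fold lower in SMCs and 2.28-fold lower in PDGFR-β+ cells, and no library crossed between groups in either. The fall was the deeper in PDGFR-β+ cells (log2 fold change 0.59, SE 0.17, adjusted p = 0.0204 for SMCs minus PDGFR-β+ cells), a difference that missed the threshold with the numbered SMC libraries alone (adjusted p = 0.0655) and narrowly so (adjusted p = 0.05) without Scr replicate 1 of PDGFR-β+ cells.

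Lamc1 (chr1:153218922-153332786, reverse strand), the γ1 chain shared by most laminins, passed the threshold in neither cell type, except in SMCs when the naming of the libraries was a term of the fit (adjusted p = 0.0447). SMCs read 187, 178 and 174 TPM for Scr and 173, 161 and 152 TPM for siKlf4. PDGFR-β+ cells read 185, 169 and 173 TPM and 205, 186 and 184 TPM. The siKlf4 values were all lower in SMCs (log2 fold change -0.15, SE 0.071, adjusted p = 0.154, 95% interval -0.32 to 0.017) and overlapped Scr in PDGFR-β+ cells (log2 fold change 0.12, SE 0.072, adjusted p = 0.210, 95% interval -0.046 to 0.29). The difference between cell types did not pass it either (log2 fold change -0.27, SE 0.10, adjusted p = 0.0516).

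Lama1, the α1 chain of embryonic laminin-111, rose in PDGFR-β+ cells from 3.02 to 8.04 TPM (log2 fold change 1.13, adjusted p = 0.00387) and had means of 3.66 and 4.26 TPM in SMCs without a detected change (log2 fold change 0.17, adjusted p = 0.425). Lama3, Lamb3 and Lamc3 stayed under 1 TPM in every library.

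Nid1 (chr13:13437551-13512269, forward strand) encodes nidogen-1, which joins the laminin γ1 chain to type IV collagen. In SMCs it went up, from 803, 825 and 807 TPM with Scr to 1090.4, 1304 and 1178 TPM with siKlf4 (log2 fold change 0.55, SE 0.078, adjusted p = 0.00372). In PDGFR-β+ cells it went down, from 827, 805 and 755 TPM to 401, 399.6 and 377 TPM (log2 fold change -1.02, SE 0.066, adjusted p = 4.19e-05). The Scr levels of both cell types overlapped, and after siKlf4 the mean was 1.47 times the Scr mean in SMCs and 0.494 times it in PDGFR-β+ cells. Both calls and their difference (log2 fold change 1.56, SE 0.10, adjusted p = 2.24e-06) passed the threshold under every alternative tried and without any one library.

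Nid2 (chr14:19751265-19811787, forward strand), which encodes the second nidogen, fell in both cell types. SMCs had 247, 223 and 227 TPM for Scr and 85.8, 79.3 and 84.8 TPM for siKlf4, the deepest fall among the 10 genes in these cells (log2 fold change -1.47, SE 0.069, adjusted p = 0.000437). PDGFR-β+ cells, which started lower, had 52.2, 39.4 and 53.0 TPM for Scr and 34.7, 28.2 and 24.9 TPM for siKlf4 (log2 fold change -0.70, SE 0.16, adjusted p = 0.00974). Groups were apart in both, and the fall was the deeper in SMCs (log2 fold change -0.77, SE 0.18, adjusted p = 0.00745). On the opposite strand lies Rtraf, whose exons share 437 of the 5174 exon bases of Nid2. The libraries kept strand, but the counting setting is not given in the sources used here. Rtraf means were 155 and 129 TPM in SMCs and 154 and 147 TPM in PDGFR-β+ cells, with Scr and siKlf4.

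Hspg2 (chr4:137468769-137570630, forward strand) encodes perlecan, a large proteoglycan that stores growth factors in basement membranes and in vessel walls restrains smooth muscle growth. In SMCs it stood at 246, 293 and 296 TPM for Scr and 312, 342 and 329 TPM for siKlf4. The siKlf4 values were all higher, yet the change did not pass the threshold (log2 fold change 0.24, SE 0.088, adjusted p = 0.0847, 95% interval 0.03 to 0.45) unless the naming of the libraries was a term of the fit (adjusted p = 0.0142) or only the numbered ones were used (adjusted p = 0.0380). In PDGFR-β+ cells Hspg2 fell from 495, 482 and 384 TPM to 344, 265 and 257 TPM, with the groups apart (log2 fold change -0.65, SE 0.14, adjusted p = 0.00881). The response differed between the cell types (log2 fold change 0.89, SE 0.18, adjusted p = 0.00303).

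Agrn (chr4:156165290-156197488, reverse strand) encodes agrin, which clusters acetylcholine receptors at the neuromuscular junction through LRP4 and MuSK and is a wider basement membrane component. In SMCs it rose from 31.6, 44.2 and 46.2 TPM with Scr to 104, 108 and 117 TPM with siKlf4 (log2 fold change 1.42, SE 0.14, adjusted p = 0.00136), 2.69-fold by the means. In PDGFR-β+ cells it rose from 12.1, 10.9 and 11.5 TPM to 214, 166 and 173 TPM (log2 fold change 3.88, SE 0.11, adjusted p = 3.32e-06), 16.0-fold by the means. No library crossed between groups, and PDGFR-β+ cells, whose Scr level was under that of SMCs, ended above them. The rise was the larger in PDGFR-β+ cells (log2 fold change -2.46, SE 0.19, adjusted p = 7.49e-06 for SMCs minus PDGFR-β+ cells). Of the 10 genes it was the one with the largest change in PDGFR-β+ cells, and the call held under each alternative tried.

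Sums and shares within a class describe the genes of one kind as a set, and opposite moves within a class offset each other in its sum. A share within a library does not depend on how the library was scaled. The sum over all 10 genes in SMCs was 2228 ± 9.57 TPM in Scr libraries and 2423 ± 105 TPM in siKlf4 libraries (each mean ± SD, n = 3), all siKlf4 libraries being higher (exact permutation test, two-sided p = 0.1). The sum in PDGFR-β+ cells was 1991 ± 123 TPM for Scr and 1499 ± 147 TPM for siKlf4, all siKlf4 libraries being lower (exact p = 0.1). The nidogens are part of these sums, with 1044 and 1274 TPM in SMCs and 844 and 422 TPM in PDGFR-β+ cells. Their means differed by 230 TPM in SMCs, where the whole sum differed by 196 TPM. In PDGFR-β+ cells these differences were -422 and -492 TPM. The SMC rise of the nidogens lay in Nid1, with means of 812 and 1191 TPM, while Nid2 fell. Gamma chains went from 188 to 166 TPM in SMCs without overlap, and overlapped in PDGFR-β+ cells. Beta chains were lower with siKlf4 in both, at 480.4 and 393 TPM in SMCs and 364 and 275 TPM in PDGFR-β+ cells. Alpha chains went from 209 to 161 TPM in SMCs without overlap, and overlapped in PDGFR-β+ cells. Perlecan and agrin together went from 319 to 437 TPM in SMCs. In PDGFR-β+ cells, where Hspg2 fell and Agrn rose, their sums overlapped at 465 and 473 TPM.

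Shares of single genes within a class moved for some genes and not for others. Lamb2 gave 31.9 ± 0.711% (SD, n = 3) of β chain TPM in Scr SMCs and 25.5 ± 0.802% in siKlf4 SMCs. In PDGFR-β+ cells its share was 57.8 ± 1.83% with Scr, the larger part of the class, and 33.3 ± 3.10% with siKlf4. The ratio of Lamb1 to Lamb2 thereby passed from 0.730 to 2.02 in PDGFR-β+ cells and from 2.13 to 2.92 in SMCs. Agrin rose from 12.7 ± 1.11% to 25.1 ± 1.03% of the summed agrin and perlecan TPM in SMCs and from 2.50 ± 0.359% to 39.0 ± 1.06% in PDGFR-β+ cells. Nid1 made up 77.8 ± 1.14% of nidogen TPM in Scr SMCs and 93.4 ± 0.788% with siKlf4, and overlapped in PDGFR-β+ cells at 94.3 ± 0.965% and 93.1 ± 0.933%. These separate groups each gave an exact permutation p of 0.1, the smallest that 3 against 3 allows.

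Within the α class, Lama4 kept the largest share at 68.1% and 69.7% in SMCs and 64.6% and 65.7% in PDGFR-β+ cells, the groups overlapping in both. The share of Lama2 went from 20.1% to 15.8% in SMCs, and that of Lama5 from 3.80% to 1.92% in PDGFR-β+ cells, both without overlap. Lama1 went from 2.07% to 5.44% in PDGFR-β+ cells and from 1.75% to 2.63% in SMCs.

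**Figure D3:**
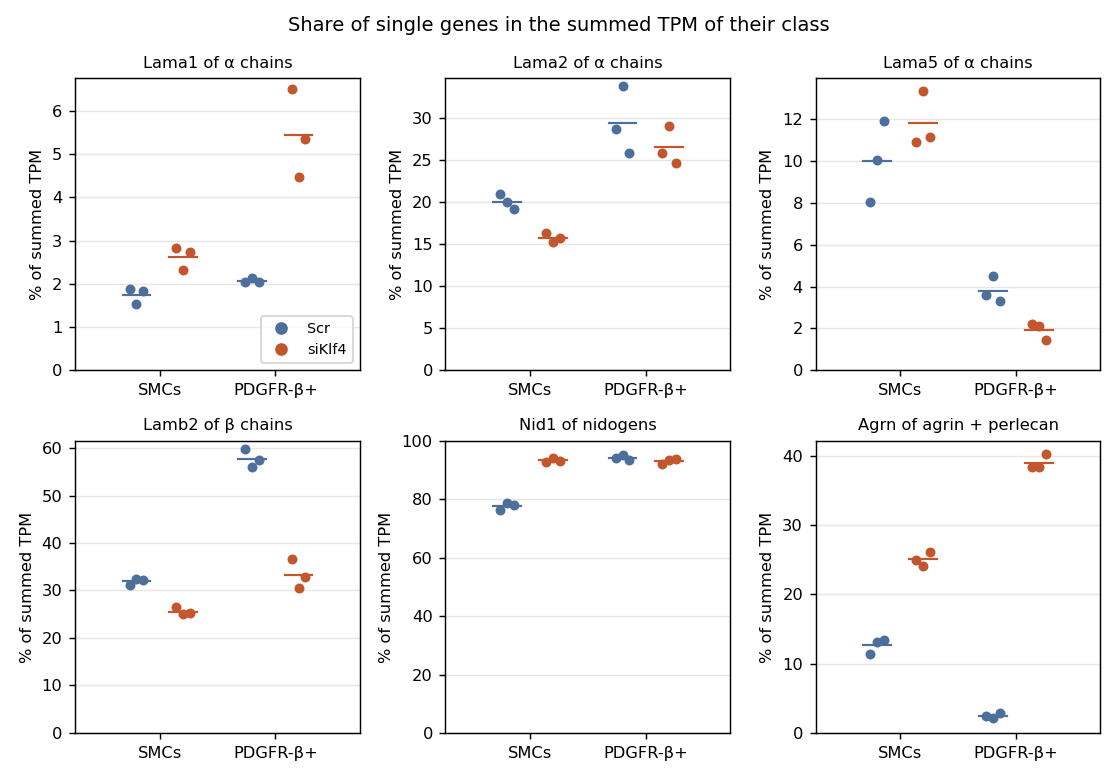
Share (%) of 6 genes in the summed TPM of their class, 1 point per library and a line at the group mean, Scr in blue and siKlf4 in orange, with y axes that start at 0. The share of Lamb2 falls and that of Agrn rises in both cell types, and the share of Nid1 is higher with siKlf4 in SMCs and overlaps in PDGFR-β+ cells.

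Type IV collagen, the other network of the sheet, had 4 of 6 chains above the minimum level. In SMCs Col4a2 rose and Col4a5 and Col4a6 fell, and in PDGFR-β+ cells Col4a2 and Col4a6 fell. For comparison, 15.6% of all tested genes were higher and 12.9% lower in SMCs, and 25.3% and 15.3% in PDGFR-β+ cells. Col4a2, the partner of Col4a1 in the common trimer, went from 321 to 396 TPM in SMCs (log2 fold change 0.30, adjusted p = 0.0170) and from 368 to 294 TPM in PDGFR-β+ cells (log2 fold change -0.32, adjusted p = 0.0302), and the difference between the cell types passed the test (adjusted p = 0.00216). Col4a1 had means of 504 and 552 TPM in SMCs and 490.2 and 463 TPM in PDGFR-β+ cells, with no change detected (adjusted p = 0.232 and 0.427). Col4a6 of the smooth muscle type α5α6 network went from 9.37 to 4.58 TPM in SMCs (adjusted p = 0.00280) and from 9.15 to 6.62 TPM in PDGFR-β+ cells (adjusted p = 0.0425). Its partner Col4a5 went from 104 to 84.3 TPM in SMCs (adjusted p = 0.0399) and had 95.6 and 87.0 TPM in PDGFR-β+ cells (adjusted p = 0.374).

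Of 18 other components of basement membranes, 14 were tested in SMCs, with 2 higher and 5 lower, and 15 in PDGFR-β+ cells, with none higher and 7 lower. Their median log2 fold change was -0.35 and -0.52. Of all tested genes, 15.6% were higher and 12.9% lower in SMCs, and 25.3% and 15.3% in PDGFR-β+ cells. Fbln2, a fibulin that binds nidogen and perlecan, fell in PDGFR-β+ cells from 1903 to 337 TPM (log2 fold change -2.50, adjusted p = 5.45e-06) and had 715 and 659 TPM in SMCs (log2 fold change -0.11, adjusted p = 0.690). Tinagl1, a matricellular protein related to tubulointerstitial nephritis antigen, fell in PDGFR-β+ cells from 389 to 80.2 TPM (adjusted p = 1.48e-05), with 281 and 254 TPM in SMCs (adjusted p = 0.297). Both differed between the cell types (adjusted p = 3.06e-05 and 6.57e-06). Smoc2, of the SPARC family, fell in both, from 46.0 to 14.6 TPM in SMCs and from 6.88 to 1.66 TPM in PDGFR-β+ cells (adjusted p = 0.00616 and 0.000106). Npnt, the integrin ligand nephronectin, did so too, from 60.4 to 36.9 TPM and from 20.3 to 12.1 TPM (adjusted p = 0.0177 and 0.00866). Fibulin-1 (Fbln1) fell in SMCs from 41.5 to 23.8 TPM and Egfl6 from 2.45 to 0.546 TPM (adjusted p = 0.00299 and 0.0369), and hemicentin-2 (Hmcn2) fell in PDGFR-β+ cells from 2.27 to 0.728 TPM (adjusted p = 0.0277).

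The receptor list held 14 genes. In SMCs 3 of 14 tested rose and 4 fell, where 15.6% and 12.9% of all tested genes did. In PDGFR-β+ cells 2 of 13 rose and 3 fell, where 25.3% and 15.3% of all tested genes did. Itgb1, the β1 subunit shared by the laminin integrins, rose in SMCs from 1301 to 1649 TPM (log2 fold change 0.34, adjusted p = 0.00937) and fell in PDGFR-β+ cells from 1670.4 to 1147 TPM (log2 fold change -0.54, adjusted p = 0.000731), an opposite pair whose difference passed the test (adjusted p = 3.05e-05). Itga6, a laminin-binding α subunit, rose in SMCs from 5.25 to 7.94 TPM (adjusted p = 0.0170), with 12.5 and 8.36 TPM in PDGFR-β+ cells (adjusted p = 0.0513). Itga7, the laminin-binding α subunit of muscle, fell in SMCs from 3.29 to 1.53 TPM (adjusted p = 0.00703), and Itga2, of a collagen and laminin receptor, fell in PDGFR-β+ cells from 8.97 to 5.75 TPM (adjusted p = 0.0132). Syndecan-1 (Sdc1) fell in both, from 94.0 to 53.0 TPM and from 76.0 to 46.1 TPM (adjusted p = 0.000997 and 0.000759). Of the agrin receptor pair, Lrp4 fell in SMCs from 20.3 to 7.84 TPM (adjusted p = 0.0140) and had 1.51 and 1.01 TPM in PDGFR-β+ cells (adjusted p = 0.194). Musk, its kinase partner, rose in PDGFR-β+ cells from 1.78 to 3.22 TPM (adjusted p = 0.0239) and had 2.56 and 1.96 TPM in SMCs (adjusted p = 0.222). Agrn and Lrp4 thus moved in opposite directions in SMCs.

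Enzymes that build the sugar chains of dystroglycan were found for 13 of 15 symbols. In SMCs Pomt2, of the first mannose transfer, rose from 18.1 to 25.1 TPM and Pomk, the mannose kinase, fell from 17.2 to 12.4 TPM (adjusted p = 0.0338 and 0.0205), while the other 11 did not pass the test. In PDGFR-β+ cells none rose and 4 fell, with Pomt2 going from 11.7 to 5.79 TPM and Pomgnt2 from 11.6 to 7.05 TPM (adjusted p = 0.0106 and 0.00327). Pomt2 differed between the cell types (adjusted p = 0.00203). The shares of all tested genes were 15.6% higher and 12.9% lower in SMCs, and 25.3% and 15.3% in PDGFR-β+ cells.

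Of 22 enzymes of heparan sulfate, the sugar carried by perlecan and agrin, 21 were tested. In SMCs 5 rose and 2 fell, against 15.6% and 12.9% of all tested genes. In PDGFR-β+ cells 2 rose and 6 fell, against 25.3% and 15.3%. Among the sulfotransferases of SMCs, Hs6st2 rose from 35.6 to 63.1 TPM and Hs3st1 from 17.1 to 24.9 TPM, and Hs6st1 fell from 22.7 to 12.4 TPM (adjusted p = 0.000997, 0.0101 and 0.00191). The transferase Extl2 fell there from 50.7 to 27.0 TPM (adjusted p = 0.00442). In PDGFR-β+ cells the epimerase Glce fell from 40.6 to 18.0 TPM, the 6-O-sulfatase Sulf1 from 100.3 to 56.9 TPM and the linker enzyme B3galt6 from 6.31 to 4.48 TPM, and the N-sulfotransferase Ndst1 rose from 86.7 to 116 TPM (adjusted p = 8.84e-05, 0.00239, 0.0288 and 0.00595). Ndst1 rose in SMCs as well, from 56.3 to 74.2 TPM (adjusted p = 0.0110), and B3galt6 rose there from 4.54 to 6.59 TPM (adjusted p = 0.0232). B3galt6 therefore moved in opposite directions (interaction adjusted p = 0.00136).

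Of 11 enzymes that cleave or process these proteins, 10 were tested, with 2 higher and 3 lower in SMCs and 2 higher and 4 lower in PDGFR-β+ cells. Among all tested genes these shares were 15.6% and 12.9% in SMCs, and 25.3% and 15.3% in PDGFR-β+ cells. Mmp3, stromelysin-1, which cleaves laminin, nidogen and perlecan, fell from 1992 to 1248 TPM in SMCs and from 449 to 149 TPM in PDGFR-β+ cells (adjusted p = 0.00119 and 0.00365). Htra1 fell in both too, from 32.3 to 21.3 TPM and from 30.3 to 21.0 TPM (adjusted p = 0.0252 and 0.00542). Tll1, of the tolloid proteinases, rose from 63.3 to 137 TPM and from 114 to 147 TPM (adjusted p = 0.00473 and 0.00833), while its relative Bmp1 fell in SMCs from 224 to 157 TPM (adjusted p = 0.00326) and had 128 and 145 TPM in PDGFR-β+ cells (adjusted p = 0.0834). In PDGFR-β+ cells the sheddase Adam10 fell from 134 to 76.0 TPM and Adamts1 rose from 169 to 276 TPM (adjusted p = 0.0130 and 0.0101).

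**Figure D4:**
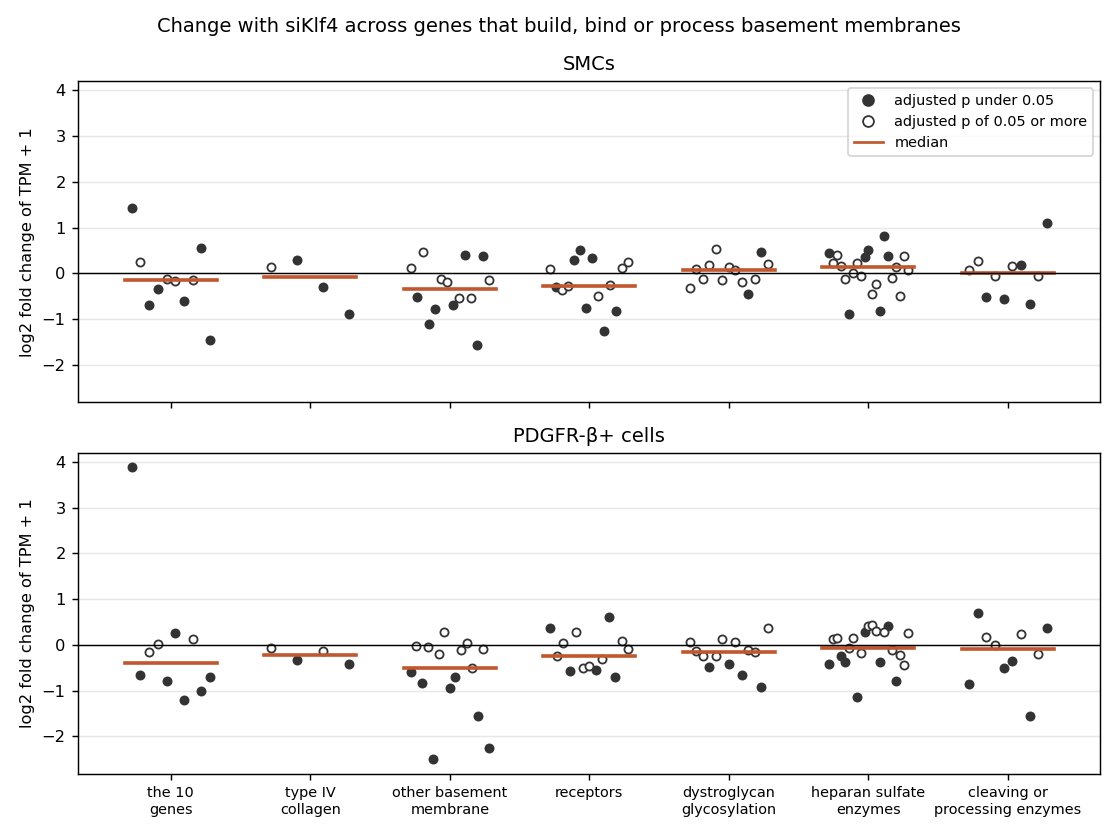
Log2 fold change of TPM + 1 with siKlf4 (y axis) for each tested gene, grouped as the 10 genes and 6 lists (x axis), SMCs above and PDGFR-β+ cells below, filled where the adjusted p is under 0.05 and with a line at each median. Each group with more than 5 tested genes has filled points on both sides of 0 in SMCs, and the medians of all groups lie below 0 in PDGFR-β+ cells.

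Nid2 had the largest absolute log2 fold change of the 10 genes in SMCs, close to that of Agrn, and without Scr replicate 3 the order was the reverse (-1.48 for Nid2 and 1.52 for Agrn). The genes whose levels over the 12 libraries ran closest to Nid2 were Lpgat1, Tns2, Rom1, Epas1 and Slc43a3, with Pearson correlations of log2(TPM + 1) from 0.990 to 0.994. Lpgat1 went from a mean of 124 to 84.9 TPM in SMCs and from 70.8 to 55.8 TPM in PDGFR-β+ cells, and Slc43a3 from 263 to 115 TPM and from 82.3 to 54.8 TPM. Those closest to Agrn, which changed most in PDGFR-β+ cells, were Pcdh17, Igtp, Parp10, Tgtp2 and Ccar2, at 0.989 to 0.996. Igtp went from 15.4 to 37.5 TPM and from 5.80 to 53.5 TPM, and Tgtp2 from 6.22 to 17.2 TPM and from 0.553 to 39.5 TPM. These are the highest of 13032 genes compared over libraries that share 4 group means, and are given as a description.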

How the data were processed

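Bulk RNA-seq of 12 libraries was used. The authors made strand-specific poly(A) libraries, aligned trimmed reads to the mouse build mm10 using HISAT2 with a GENCODE annotation, and derived abundances from StringTie and ballgown. The GENCODE release and the versions of HISAT2, StringTie and ballgown are not given in the sources used here. They deposited TPM in 1 table per cell type, each library summing to 1000000, with replicates not pooled. A fixed total lets a few abundant genes shift the others, and since TPM holds no record of depth, the depth is unknown and precision comes from the spread of 3 libraries per group. The counts behind the DESeq2 test of the study were not used here.

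From the tables, log2(TPM + 1) was fitted per cell type with limma 3.58.1 in R 4.3.3 (eBayes with trend, two-sided, mean of at least 1 TPM, Benjamini-Hochberg threshold 0.05). The difference between cell types was an interaction term over genes at 1 TPM or more in both. Sums and shares were compared by exact permutation of libraries. The code was tested on simulated data. Gene positions are from GENCODE M21, promoters from RefSeq. The 10 genes, the pathway and marker lists and the tests were chosen with earlier results of these data known. Named beside the 10 genes are Klf4, every gene of lists with up to 6 tested genes, otherwise the 4 largest changes past the threshold without overlap per cell type, and the 5 genes most correlated with the most changed of the 10. Results on some genes of these lists are not reported here. Alternatives were a pseudocount of 0.1, no filter or a minimum of 5 TPM, median-ratio and quantile scaling, no trend, a joint fit, a replicate block, terms or subsets for the unnumbered SMC libraries, and leaving out each library.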

Additional observations from a re-analysis of the deposited data

Results flagged for a closer look

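The change with siKlf4 differed between SMCs and PDGFR-β+ cells for 8 of the 10 genes, tested as the interaction term in limma with adjustment over 13032 genes. By the same test it differed for 33% of those 13032 genes. Given as the log2 fold change in SMCs minus that in PDGFR-β+ cells, the effect was higher in SMCs for Nid1 (1.56), Hspg2 (0.89), Lama5 (0.67) and Lamb2 (0.59). It was lower in SMCs for Agrn (-2.46), Nid2 (-0.77), Lama2 (-0.55) and Lamb1 (-0.41). Nid1 is the one of these whose change passed the threshold in both cell types in opposite directions. Agrn rose in both, and Lamb2 and Nid2 fell in both, so that for these the difference is one of size. Lama2 passed the threshold in SMCs alone, and Lama5, Lamb1 and Hspg2 in PDGFR-β+ cells alone. With single libraries left out, the difference passed the threshold in 4 of 12 fits for Lama5, 7 for Lama2 and 11 for Lamb2. For Nid1, Nid2, Hspg2, Agrn and Lamb1 it passed in all 12. The median interaction over all genes was -0.078, and -0.0054 after median-ratio scaling. The cell types also differ in source, culture history and how far Klf4 was lowered, which cannot be told apart from cell type here.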

How the results depend on the processing

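Over the alternatives other than leaving out single libraries, 95 of 100 values of the 10 genes in SMCs, 75 of 79 in PDGFR-β+ cells and 90 of 99 of the difference between cell types kept their direction and their side of the threshold. Leaving out single libraries, 57 of 60, 53 of 60 and 104 of 120 did. In SMCs the counts ranged from 2 to 3 genes higher and 3 to 6 lower over all alternatives, for which shares of all genes are not given here. The number of genes higher in PDGFR-β+ cells was 1 in place of 2 under median-ratio scaling and without a mean-variance trend, and 1 to 2 with single libraries left out, Lamb1 being the gene lost. The sign of Lama4 in PDGFR-β+ cells turned under median-ratio scaling (-0.088), quantile normalization (-0.034) and with single libraries left out (-0.15 to 0.11), none past the threshold, and its share of α chains changed by -1.38 to 3.22 percentage points. The difference for Lama5 was lost without a filter on low values (adjusted p = 0.0859), with the replicate block (0.102) and with the numbered SMC libraries alone (0.124), and could not be fitted at a minimum mean of 5 TPM. That for Lamb2 was lost with the numbered SMC libraries alone (0.0655), and that for Lamc1 passed in 5 alternatives. The cause was not tested.

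Over all genes, deviations of same-numbered PDGFR-β+ libraries correlated at 0.073, -0.016 and 0.0043, and those of differently numbered ones at -0.0983 to 0.0831. Only 2 pairs of SMC libraries carry numbers (0.107). Deviations of 2 libraries per group mirror each other, so this value cannot show whether SMC libraries were paired. The unnumbered SMC libraries were not part of this check. A term for them lowered the SE in SMCs for Lama2 (0.107 to 0.0519), Lama4 (0.0817 to 0.0399) and Hspg2 (0.0883 to 0.0498). It raised the SE for none of the genes followed here. Whether the unnumbered Scr and siKlf4 libraries were a pair was not tested. With the replicate block, which leaves out the unnumbered SMC libraries, the counts were 2 higher and 4 lower in SMCs. In PDGFR-β+ cells they were 2 higher and 5 lower. The difference between cell types passed for 8 genes, with Lamc1 among them and Lama5 not. Shares of all genes under this block are not given here, so these counts cannot be set against a background.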
